A study of Homo sapiens with 46 samples.

Results

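The mitochondrial ribosomal protein genes, MRPS35 among them, were examined in human cells depleted of Ku. The members were all genes whose symbol reads MRPL or MRPS followed by a number and at most one of the letters A to C. There were 78 of them among 61228 genes in the HCT116 table and the same 78 among 30160 genes in the HEK293 table. By the position of their products, 51 belonged to the large subunit and 26 to the small subunit. The remaining member, MRPS36, carries the family name although its product is now known as a component of the 2-oxoglutarate dehydrogenase complex. All 78 passed the filter on low counts in HCT116 and 77 passed it in HEK293.

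The mitochondrial ribosome is built in the mitochondrial matrix from ribosomal RNAs encoded by mitochondrial DNA and from proteins encoded in the nucleus, which are translated in the cytosol and imported. It translates only the few mRNAs of the mitochondrial genome, whose products are core subunits of the respiratory chain and of the ATP synthase. Some of its proteins descend from bacterial ribosomal proteins, while others occur only in mitochondria. MRPS35 occurs only in mitochondria and sits in the small subunit.

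RNA was sequenced in 46 libraries, 40 from HCT116 colon carcinoma cells (poly-A enriched) and 6 from HEK293 embryonic kidney cells (ribosomal RNA depleted). Ku80-AID clones 1, 7 and 9 of HCT116 carry an auxin-inducible degron on Ku80, a subunit of the DNA end-binding Ku dimer. Treatment was with indole-3-acetic acid (IAA) at 100 µM plus 0.5 µg/mL doxycycline for 1 day (2 libraries) or for 2, 4 or 6 days (3 libraries each), against DMSO for 1 day (2 libraries) or 2 days (3 libraries). The same clones received IAA and doxycycline on top of a CDK4/6 inhibitor, against the inhibitor alone, for 2 days (2 libraries each, clones 1 and 9) or 4 days (3 each). Ku80-AID, MAVS-/- clones 1, 13 and 15 lack the adaptor of RIG-I-like RNA sensors and received IAA and doxycycline or DMSO for 4 days (3 each). Ku86Flox/-:CreERT2 cells, in which Cre excises the floxed Ku80 (Ku86) allele, received 50 nM 4-hydroxytamoxifen (4OHT) or ethanol (EtOH) for 4 days, and so did Ku86Flox/- cells without Cre (2 libraries per group). HEK293 Ku70-/- clones Sa11, SB and TI express ectopic Ku70 only with doxycycline, and were sampled after 8 days without it and while kept in 1 µg/mL doxycycline (3 each). All 6 genotype labels give Ku70-/-, but the number in the name of the ectopic protein differs from label to label. It was read as Ku70 throughout, the name in the treatment protocol. Doxycycline, a tetracycline known as background to inhibit mitochondrial translation, was thus present in the IAA arm of every degron comparison, in the control arm of HEK293 and in neither arm of the Cre comparison. In the degron clones the effects of Ku80 loss, IAA and doxycycline on these genes cannot be told apart.

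Totals ran from 9.53 to 45.7 M (mega) counts in the degron libraries, 13 to 17.6 M in the Ku86Flox/- libraries and 19.6 to 28.5 M in HEK293, and the median member held 614 counts per HCT116 library. XRCC5, which encodes Ku80, read 24.9 and 30.7 CPM (counts scaled to library size) with 4OHT in Cre cells against 256 and 258 CPM with EtOH. MAVS mRNA read 108 to 184 CPM in MAVS-/- libraries and 261.6 to 459 CPM in degron libraries with intact MAVS. The degron acts on the protein, so XRCC5 mRNA, at 166 to 398 CPM in the degron libraries, does not check the IAA labels. XRCC6, which encodes Ku70, read 339 to 605 CPM without doxycycline in HEK293 and 2269 to 3529 CPM with it. In HCT116 the epithelial markers EPCAM, KRT8 and KRT18 were at 207 TPM (levels corrected for transcript length) or more in every library, while CDH17 and LGALS4 had medians of 0 and 0.068 TPM and the blood cell markers PTPRC and CD3E reached at most 0.125 TPM. The HEK293 libraries expressed NEFL and LIN28B at 36.6 to 57.0 TPM in every library, but NEFM, PAX2 and SOX11 stayed at or under 1.03 TPM.

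One feature of the libraries bears on several comparisons. The 1-day libraries and the 2-day inhibitor libraries were named by hours and the other degron libraries by days. Between the DMSO controls of these 2 sets, 52 members were higher and 2 lower at 1 day than at 2 days (edgeR adjusted p under 0.05, the threshold for every call below), where 37.2% of all genes were called. The members' median log2 difference was 0.63. With the members split by transcript length into 4 classes, it was 0.88 in the shortest class and 0.29 in the longest. MRPL54, a large subunit protein, read 24.0 and 20.8 CPM in 1-day DMSO libraries against 3.06, 5.23 and 5.05 CPM in 2-day DMSO libraries. At 2 days of IAA the medians of the shortest and longest classes were -0.44 and -0.36. MRPS35 differed by only 0.16 ± 0.13 between these controls (log2 ± standard error), which was not called. Time in culture and library set cannot be told apart here.

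**Figure D1:**
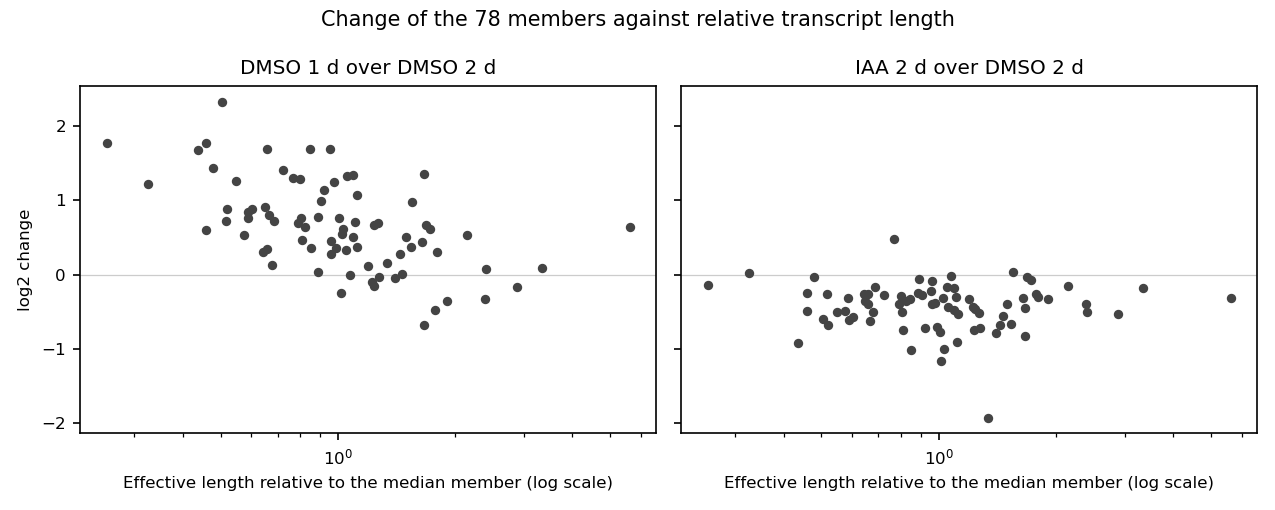
Change of each member (log2, vertical axis) against its effective transcript length relative to the median member (log axis), for DMSO 1 day over DMSO 2 days (left) and IAA 2 days over DMSO 2 days (right). Each point is 1 of 78 genes. Short transcripts stand higher in the 1-day controls, while the IAA changes show no such slope.

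In the 2-day DMSO controls the mean level per length ran from 15.3 ± 4.14 TPM for MRPL54 to 227 ± 18.2 TPM for MRPL42 (SD, n = 3), both large subunit proteins, with a median of 78.7 TPM. MRPL42, MRPL20 (205 ± 30.6 TPM) and MRPL3 (201 ± 8.56 TPM) were the highest, and their SDs overlap. MRPS14 and MRPS17 were next to the lowest, at 16.3 ± 2.94 and 16.4 ± 2.05 TPM, and did not differ from MRPL54 beyond their spread. MRPS35 ranked 28 of 78 at 94.5 ± 0.898 TPM (SD, n = 3). In HEK293 with doxycycline the highest member was MRPS34, a small subunit protein, at 395 ± 36.1 TPM, and MRPS35 ranked 23 at 106 ± 4.27 TPM. MRPL45, which lies at the exit of the peptide tunnel and has a near-identical copy in the genome, was listed at 0 in 5 HEK293 libraries and at 38 counts in the other one. It was not tested there, and its HCT116 values are uncertain for the same reason, as are those of MRPS31.

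Summed over the 78 members, the level was 4226 ± 186 TPM at 4 days of IAA (SD, n = 3) against 6534 ± 307 TPM in 2-day DMSO controls. At 2 and 6 days of IAA the sums were 5285 ± 222 and 5054 ± 335 TPM. These 9 sums lay between 4064 and 5501 TPM, below every 2-day DMSO library (6230 to 6843 TPM). Libraries without IAA also lay below those controls: 4866 to 5793 TPM with the inhibitor alone at 4 days and 5512 to 5929 TPM in 4-day MAVS-/- DMSO. For the inhibitor alone the members' median log2 change by edgeR was -0.02. In bulk RNA fewer cells with a transcript and less of it per cell cannot be told apart.

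MRPS35 had the largest fall of all members at 1, 2 and 4 days of IAA. Its gene (ENSG00000061794.12) lies on the forward strand at chr12:27710773-27756295 of GRCh38. It read 29.8 and 36.0 CPM at 1 day of IAA against 79.3 and 74.0 CPM in 1-day DMSO controls. It read 17.2, 17.2 and 19.9 CPM at 2 days, 17.6, 20.4 and 13.7 CPM at 4 days and 24.4, 20.5 and 25.8 CPM at 6 days, against 72.6, 67.4 and 66.1 CPM in the 2-day DMSO controls. Every IAA library was thus below every DMSO library of its clones, and 2 days of IAA left 26.3% of the control level. The log2 changes were -1.22 ± 0.15 at 1 day, -1.93 ± 0.13 at 2 days, -1.99 ± 0.13 at 4 days and -1.54 ± 0.12 at 6 days. The edgeR adjusted p was 0.000115 at 1 day, where no gene of 18877 had a lower one, and 1.19e-10, 8.48e-12 and 3.11e-10 at the later times. The 4- and 6-day comparisons share the 2-day DMSO controls with the 2-day one, so time in culture differs there too.

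On the CDK4/6 inhibitor MRPS35 read 31.2 and 37.3 CPM with IAA against 66.0 and 76.8 CPM with the inhibitor alone at 2 days, and 36.3, 37.7 and 40.7 CPM against 79.1, 77.6 and 69.7 CPM at 4 days. The changes were -1.06 ± 0.15 (edgeR adjusted p = 0.000588) and -0.98 ± 0.12 (3.15e-06). The 2-day call was lost without the inhibitor plus IAA library of clone 1 (-0.92) or the inhibitor library of clone 9 (-0.93). In MAVS-/- clones MRPS35 read 23.0, 23.4 and 24.8 CPM with IAA against 55.1, 53.1 and 55.5 CPM with DMSO, a change of -1.20 ± 0.12 (7.35e-07). The groups did not overlap in any of these comparisons.

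**Figure D2:**
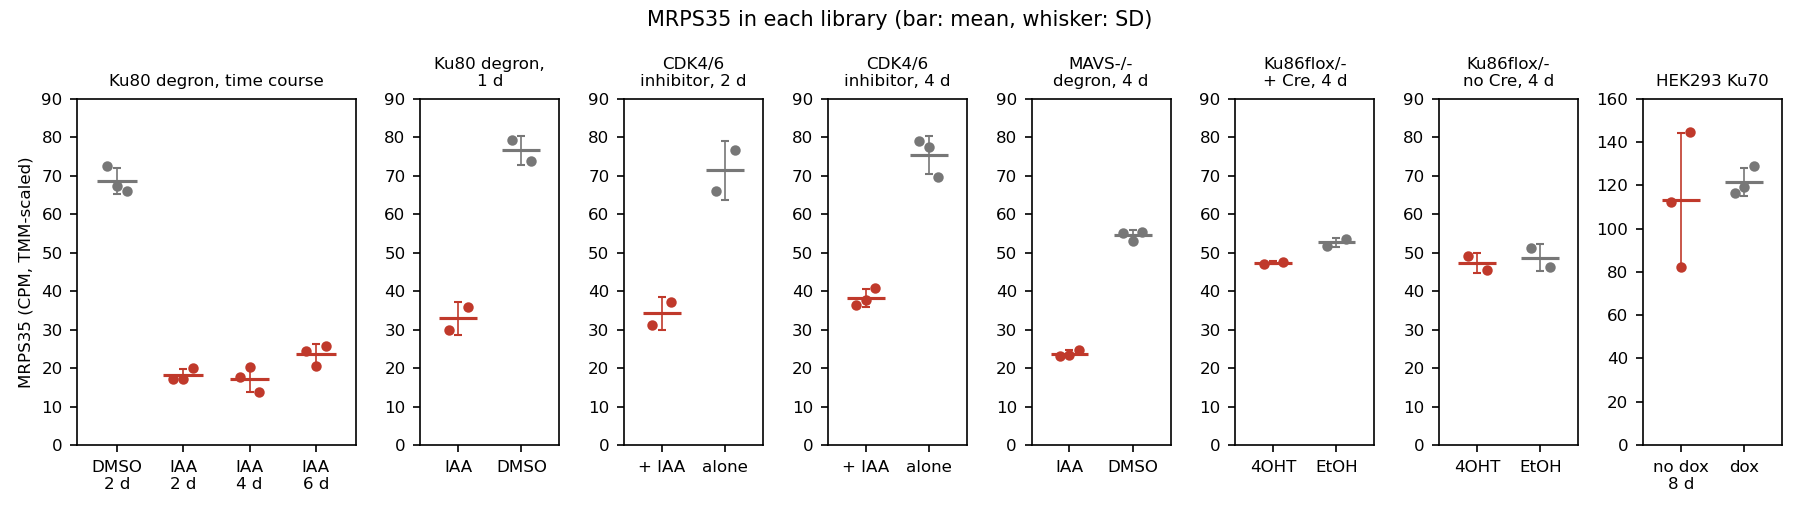
MRPS35 in each of the 46 libraries (CPM after TMM scaling, vertical axis; the HEK293 panel has its own scale), by treatment (horizontal axis). Points are libraries, bars group means and whiskers the SD; in the time course the 2-day DMSO control comes before 2, 4 and 6 days of IAA. All IAA libraries lie below their controls, while the 4OHT and doxycycline-withdrawal groups lie near theirs.

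Other routes of Ku removal gave other values for MRPS35. In Cre cells it read 47.1 and 47.7 CPM with 4OHT against 51.8 and 53.6 CPM with EtOH. The change of -0.15 ± 0.07 was not called (edgeR adjusted p = 0.0917, 95% interval of the log2 change -0.29 to -0.01), although limma on log2(TPM + 1) called it at -0.29. Without Cre it read 49.1 and 45.6 CPM with 4OHT against 51.2 and 46.2 CPM with EtOH. In HEK293 it read 112, 82.3 and 145 CPM without doxycycline against 116, 119 and 129 CPM with it, a change of -0.10 ± 0.18 (adjusted p = 0.737, interval -0.46 to 0.26). The difference between the 4-day IAA response and the 4OHT response in Cre cells was itself called in a fit of all HCT116 libraries, at -1.87 ± 0.18 (edgeR adjusted p = 8.30e-08), as was that between 1 day of IAA and 4OHT, at -1.10 ± 0.20 (0.000224). Control duration also differs between the responses set against each other here. The inhibitor alone gave 0.06 ± 0.13 at 2 days and 0.14 ± 0.12 at 4 days, neither called.

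The genes on each side of MRPS35 did not share its change at 1, 2 and 4 days of IAA. PPFIBP1 read -0.23 ± 0.21, 0.11 ± 0.17 and -0.17 ± 0.17 at these times and KLHL42 read 0.17 ± 0.20, 0.02 ± 0.17 and -0.27 ± 0.17, none of them called. REP15 read 1.25 ± 0.66 at 4 days and was not called, and MANSC4 was not tested. PPFIBP1 fell by 0.52 at 6 days and by 0.59 in MAVS-/- clones. Over the 12 degron group means, the genes whose log2 CPM followed MRPS35 most closely were TRAP1, a mitochondrial chaperone (Pearson r = 0.99), the transcription factor TFAP4 (0.977), the metal transporter SLC39A14 (0.969), PRKDC, the catalytic subunit of DNA-PK (0.961), and HILPDA (0.954). These correlations describe 12 groups that share clones and controls.

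Windows from 250 bases before to 50 bases after the start were taken for 69 of the 78 members from RefSeq promoters (GRCh38.p14) and searched on both strands. The letters of an ETS motif, as bound by GABPA (CCGGAAG), stood in 42.0% of member windows and in 10.7% of all 27305 windows. Those of YY1 (AAGATGGC) stood in 20 of 69 member windows and in 3.03% of all windows, those of the NRF1 palindrome in 11.6% and 6.28%, and the E-box CACGTG, bound by MYC among others, in 8.70% and 7.43%. Of the 42 windows of members that fell at 4 days of IAA 45.2% held the ETS letters, against 37.0% of 27 windows of the other members. For YY1 these shares were 33.3% and 22.2%, for the E-box 9.52% and 7.41%, and for NRF1 they ran the other way, at 7.14% and 18.5%. Upstream stretches outside annotated UTRs are shown for MRPS35 and MRPL11, the members with the largest falls at 4 days and without a match, and for MRPL22 and MRPS22, which also fell. Capitals mark the E-box in MRPL22 and the ETS letters, on facing strands, in MRPS22. The searched window of MRPL22 also held the YY1 letters, outside the stretch shown.
MRPS35 (chr12:27710582-27710772, forward): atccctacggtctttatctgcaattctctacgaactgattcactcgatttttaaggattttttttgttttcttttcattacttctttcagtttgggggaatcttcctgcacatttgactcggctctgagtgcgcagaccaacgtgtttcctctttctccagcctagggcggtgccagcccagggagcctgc
MRPL11 (chr11:66438849-66439098, reverse): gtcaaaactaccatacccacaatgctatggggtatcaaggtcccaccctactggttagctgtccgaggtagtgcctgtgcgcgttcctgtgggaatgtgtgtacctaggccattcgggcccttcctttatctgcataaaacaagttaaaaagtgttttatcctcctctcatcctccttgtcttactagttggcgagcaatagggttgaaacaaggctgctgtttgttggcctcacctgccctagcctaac
MRPL22 (chr5:154940823-154941069, forward): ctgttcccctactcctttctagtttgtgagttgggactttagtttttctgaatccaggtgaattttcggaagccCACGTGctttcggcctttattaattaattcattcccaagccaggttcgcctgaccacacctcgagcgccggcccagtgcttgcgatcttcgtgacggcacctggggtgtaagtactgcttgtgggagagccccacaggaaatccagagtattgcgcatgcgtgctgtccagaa
MRPS22 (chr3:139343744-139343955, forward): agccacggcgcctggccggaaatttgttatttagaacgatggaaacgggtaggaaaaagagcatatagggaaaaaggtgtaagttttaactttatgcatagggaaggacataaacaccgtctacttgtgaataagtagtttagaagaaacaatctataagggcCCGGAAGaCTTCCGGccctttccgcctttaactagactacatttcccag
A match is a run of letters and not a measured binding site.

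After 1 day of IAA, MRPS35 was the only member called, where 0.185% of all genes were called (0.0689% down and 0.117% up). Of the 77 other members 73 had negative values, and their median log2 change was -0.21, beside 0.01 over all genes. All 77 cytosolic ribosomal protein genes tested were negative too (median -0.20), as were 67 of 76 nuclear genes of the respiratory chain (median -0.12). For 13 members the unadjusted p was under 0.05. MRPS34 and MRPL12 read 66.2 and 69.8 CPM and 114 and 115 CPM with IAA, against 105 and 96.1 CPM and 151 and 149 CPM with DMSO, and neither was called.

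After 2 days of IAA 36 members fell and none rose, where 9.94% of all genes were called down and 9.12% up. The median member stood at -0.39, beside 0.00 over all genes. Of 77 cytosolic ribosomal protein genes 26 fell (median -0.30), as did 19 of 76 nuclear genes of the respiratory chain (median -0.25). By class, 17 of 30 large subunit proteins with a bacterial homologue fell, 8 of 21 mitochondria-specific ones, 3 of 16 small subunit proteins with a bacterial homologue and 8 of 10 mitochondria-specific ones. After MRPS35 the largest falls were those of MRPL48 (-1.17 ± 0.13), MRPL11 (-1.01 ± 0.14), MRPS34 (-1.01 ± 0.16) and MRPL36 (-0.92 ± 0.26), with edgeR adjusted p up to 0.0115. MRPL11, which builds the base of the stalk where translation factors bind, read 28.8, 29.8 and 35.9 CPM with IAA against 53.0, 66.6 and 70.3 CPM with DMSO. MRPL48, a mitochondria-specific large subunit protein, read 17.6, 14.5 and 13.4 CPM against 34.2, 33.7 and 34.5 CPM. The groups did not overlap for either gene. Omitting the IAA library of clone 1 or 7 left 17 or 22 calls, omitting DMSO clone 9 left 20, and limma on TPM values gave 21.

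After 4 days of IAA 46 members fell, where 14.9% of all genes were called down, and 1 rose, where 17.9% were called up (32.8% in all). The median stood at -0.49, beside 0.04 over all genes. Falls were found in 16 of 30 large subunit proteins with a bacterial homologue, 14 of 21 mitochondria-specific ones, 8 of 16 small subunit proteins with a bacterial homologue and 8 of 10 mitochondria-specific ones. The 2-day and 4-day comparisons share their DMSO libraries. After MRPS35 the largest falls were MRPL11 (-1.45 ± 0.14), MRPS34 (-1.30 ± 0.16), MRPL16 (-1.24 ± 0.13) and MRPL12 (-1.21 ± 0.18), all with edgeR adjusted p of 5.27e-06 or less.

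MRPL11 read 25.1, 19.6 and 24.8 CPM at 4 days of IAA against 53.0, 66.6 and 70.3 CPM with DMSO. MRPS34 read 34.2, 19.2 and 26.2 CPM against 62.8, 65.4 and 68.5 CPM. MRPL16, homologue of a bacterial protein near the site where transfer RNA enters, read 16.5, 20.9 and 22.7 CPM against 46.8, 44.9 and 50.3 CPM. In all 3 genes every IAA library lay below every DMSO library. MRPL12, the stalk protein itself, read 44.2, 27.5 and 43.7 CPM against 79.2, 87.0 and 101 CPM, without overlap. The member that rose was MRPS36 (0.56 ± 0.21, edgeR adjusted p = 0.0425), at 14.5, 14.4 and 21.0 CPM against 9.37, 14.0 and 10.1 CPM. That call was lost with the clone as a block (0.56, adjusted p = 0.0594).

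**Figure D3:**
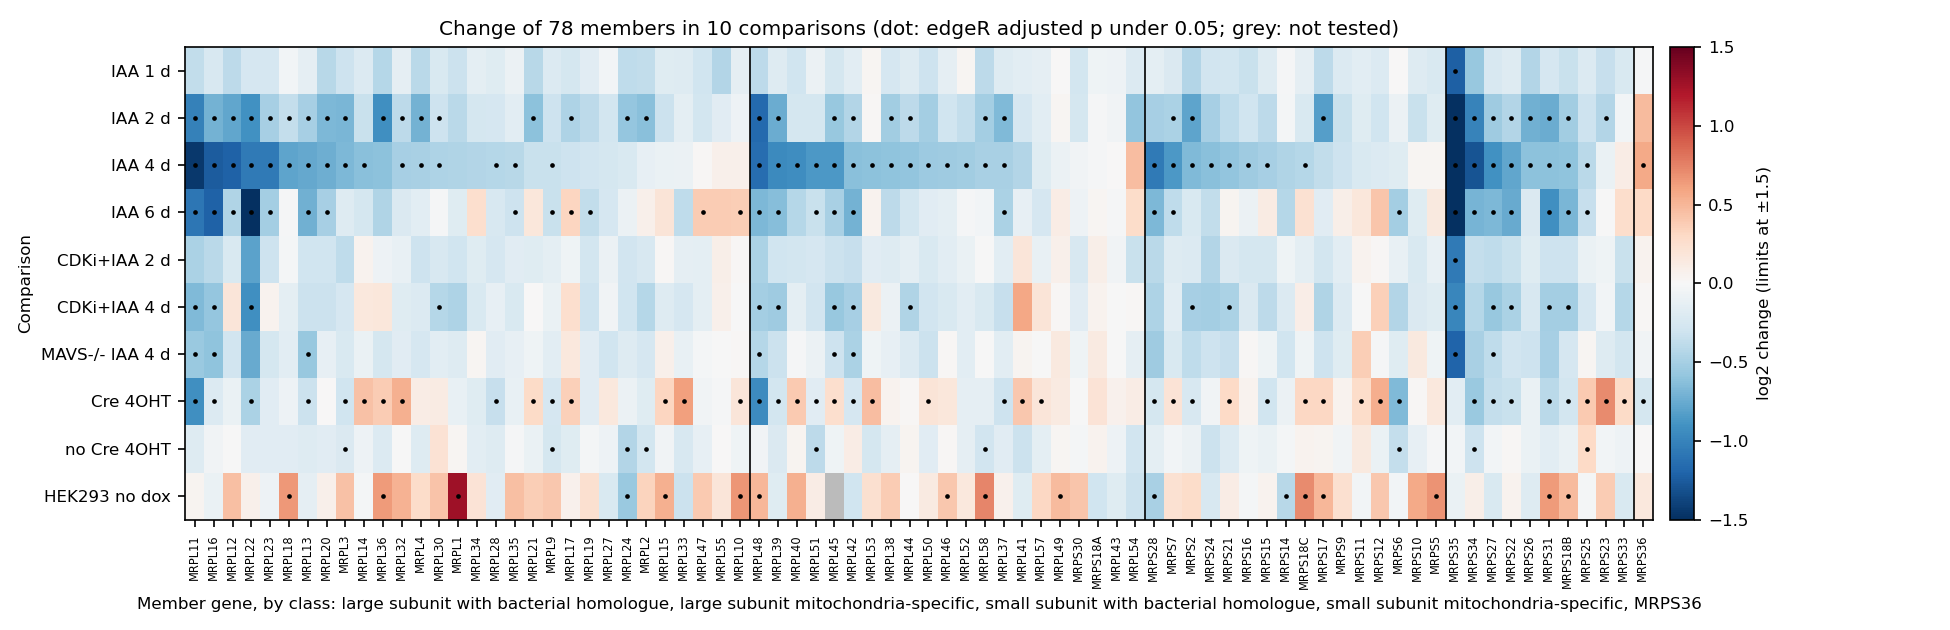
Log2 change (colour, limited at ±1.5) of the 78 members (horizontal axis, grouped by subunit and origin and ordered within a group by the 4-day IAA change) in 10 comparisons (vertical axis). Dots mark edgeR adjusted p under 0.05 and grey marks a gene not tested. The IAA rows are mostly blue, with 36 falls at 2 days and 46 at 4 days, while the Cre 4OHT row holds 23 rises and 22 falls.

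After 6 days of IAA 26 members fell, where 17.5% of all genes were called down, and 3 rose, where 17.8% were called up. The median stood at -0.22. Among the mitochondria-specific small subunit proteins 7 of 10 fell (median -0.68), as did 10 of 30 and 6 of 21 members of the 2 large subunit classes. MRPL22, homologue of a protein lining the peptide exit tunnel, stood at -1.59 ± 0.27, and MRPS35 at -1.54 ± 0.12 lay within that error. MRPL22 read 5.85, 9.89 and 6.37 CPM at 6 days against 21.8, 19.7 and 24.5 CPM with DMSO, without overlap. MRPL16 (-1.22 ± 0.13), MRPL11 (-1.08 ± 0.14) and MRPS31 (-0.92 ± 0.16) followed, with edgeR adjusted p up to 7.35e-05 among these 5. MRPL47 (0.38 ± 0.15), MRPL10, which anchors the stalk (0.37 ± 0.11), and MRPL17 (0.33 ± 0.12) rose. The count of 29 calls was 17 without the DMSO library of clone 9 and 19 without that of clone 7.

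Set against 2 days of IAA, 6 days of IAA gave 21 members higher, where 12.8% of all genes were called up, and 2 lower, where 11.8% were called down (24.6% in all). MRPL54 (0.87 ± 0.30), MRPL17 (0.79 ± 0.12), MRPL21 (0.78 ± 0.16), MRPS12 of the decoding centre (0.71 ± 0.22) and MRPL2 (0.70 ± 0.17) rose the most. The call for MRPL54 was lost with the clone as a block (0.82, edgeR adjusted p = 0.0512) and with limma (0.24), and its value ran from 0.31 to 1.19 when 1 library was left out, the lowest without 6-day clone 9 and the highest without 6-day clone 1. MRPL17 read 53.3 ± 6.33 CPM at 6 days and 30.8 ± 3.37 CPM at 2 days (SD, n = 3). MRPL16 fell further (-0.50 ± 0.13), as did MRPS6 (-0.43 ± 0.15). MRPS35 rose by 0.38 ± 0.12 (edgeR adjusted p = 0.0238), a call lost with limma on TPM values (0.11), without the count filter, and without the 2-day library of clone 1 (0.36) or 7 (0.36) or the 6-day library of clone 1 (0.35) or 9 (0.31). The count of 23 calls was 11 and 13 without the 2-day libraries of clones 1 and 7 and 15 without the 6-day library of clone 1. With limma on TPM values it was 18, of which 3 were higher and 15 lower, on a scale where the median of all genes shifted to -0.15.

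**Figure D4:**
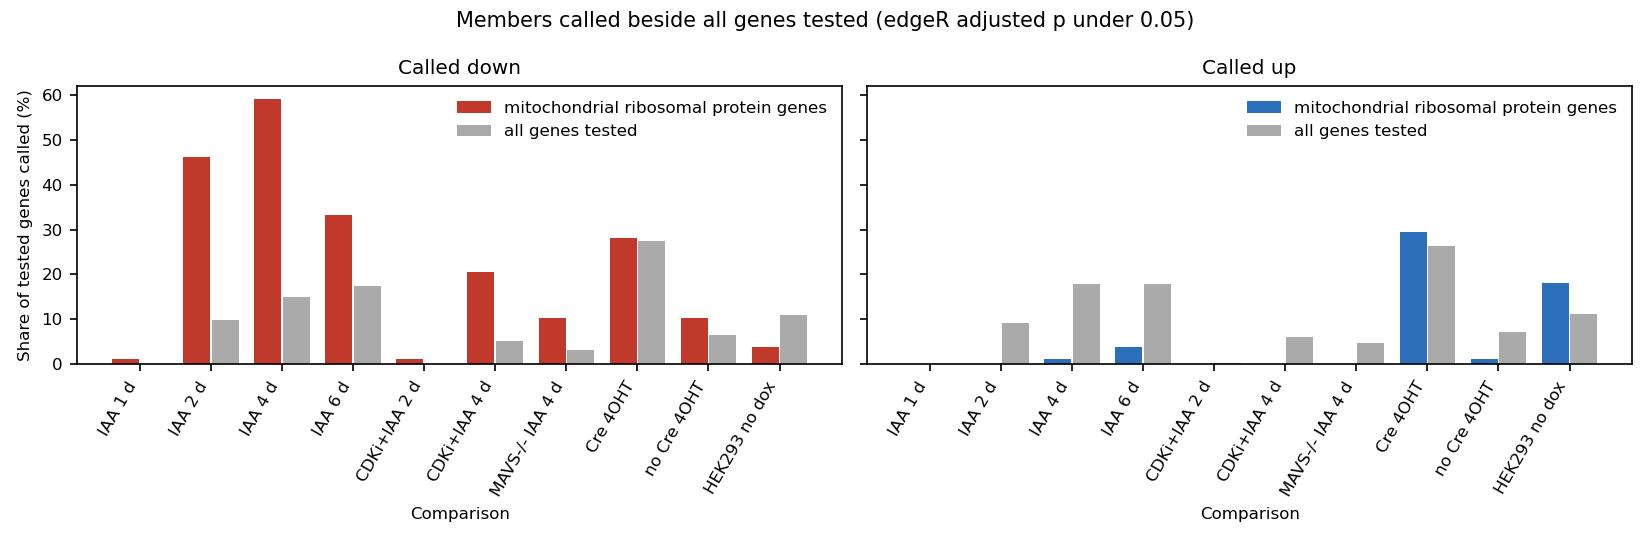
Share of tested genes called down (left) and up (right) in 10 comparisons (vertical axis, %), for the mitochondrial ribosomal protein genes (coloured) and all genes tested (grey). Members were called down more often than all genes after IAA at 2, 4 and 6 days, while in the Cre 4OHT comparison both shares are close, at 22 and 23 of 78 members against 27.5% and 26.4% of all genes.

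Inhibitors of CDK4/6 are known to halt cells before DNA replication. With the inhibitor for 4 days 16 members fell after IAA and none rose, where 5.1% of all genes were called down and 6.13% up, and the median was -0.23. All 16 also fell at 4 days without the inhibitor, as did 79.1% of all genes that fell on it. MRPL22 (-0.92 ± 0.27), MRPL11 (-0.67 ± 0.14), MRPL16 (-0.58 ± 0.13) and MRPL45 (-0.57 ± 0.10) followed MRPS35, with edgeR adjusted p up to 0.0261. MRPL11 read 35.2, 23.8 and 28.8 CPM with the inhibitor and IAA against 44.8, 41.4 and 52.7 CPM with the inhibitor. The 4-day responses with and without the inhibitor differed for 10 members, where 4.69% of all genes differed (2.19% up and 2.5% down), and all 10 differences were positive, which means a smaller fall or a rise on the inhibitor. They were 1.39 ± 0.25 for MRPL12, 1.11 ± 0.23 for MRPL23, 1.01 ± 0.17 for MRPS35, 0.88 ± 0.23 for MRPS34 and 0.78 ± 0.20 for MRPL11, with edgeR adjusted p up to 0.0263. The response on the inhibitor has 4-day controls and the response without it 2-day controls. Inhibitor and control duration cannot be told apart in these differences. MRPL12 read 91.1, 71.8 and 76.8 CPM with the inhibitor and IAA against 75.8, 77.3 and 58.3 CPM with the inhibitor alone, groups that overlap. The 16 calls became 10 without the inhibitor library of clone 1 and 8 with limma. The 10 differences became 3 to 6 without any 1 of 8 libraries, the lowest when inhibitor plus IAA clone 1 or DMSO clone 9 was left out, and 29 with limma.

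At 2 days on the inhibitor MRPS35 was the only member called after IAA, where 0.413% of all genes were called. The inhibitor alone at 4 days raised MRPL30 (0.41 ± 0.11) and MRPL45 (0.36 ± 0.10) and lowered MRPL11 (-0.45 ± 0.14), where 3.85% of all genes were called up and 3.84% down (7.69% in all) against the 2-day DMSO controls. These 3 calls became 5 with the clone as a block and with DESeq2, 0 without the count filter, 10 with limma (all lower), 0 when inhibitor clone 1 or DMSO clone 7 was left out, and 1 when DMSO clone 1 or 9 was. At 2 days the inhibitor libraries belong to the set named by hours. Against the 2-day DMSO controls 37 members were higher and 3 lower, where 34.4% of all genes were called, but against the 1-day DMSO controls of their own set 2 members were called, where 3.63% of all genes were (1.95% up and 1.68% down). MRPL54 was the extreme case, at 2.28 ± 0.32 against the 2-day and -0.05 against the 1-day controls. The 40 calls became 22 without the inhibitor library of clone 9, and limma on TPM values gave 16 higher and 28 lower.

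In MAVS-/- clones 8 members fell after 4 days of IAA and none rose, where 3.15% of all genes were called down and 4.73% up (7.88% in all). They were MRPS35, MRPL16 (-0.61 ± 0.13), MRPL13 (-0.57 ± 0.17), MRPL11 (-0.56 ± 0.14), MRPL42 (-0.47 ± 0.13), MRPL48, MRPL45 and MRPS27, and edgeR adjusted p ran up to 0.0493. All 8 also fell at 4 days in the clones with intact MAVS (8 of 46 there), as did 83.0% of all genes that fell in MAVS-/- clones. MRPL42 read 56.3, 64 and 68.5 CPM with IAA against 80.7, 101 and 79.9 CPM with DMSO, and MRPL11 read 35.7, 42.8 and 36.5 CPM against 57.8, 59.7 and 52.1 CPM. Neither pair of groups overlapped. The median over all members was -0.17, beside -0.01 over all genes. Of 77 cytosolic ribosomal protein genes all were negative and 11 fell (median -0.26). Of 76 nuclear genes of the respiratory chain 12 fell (median -0.19). The count of 8 members became 3 when IAA clone 1 or DMSO clone 13 was left out and 2 or 5 when IAA or DMSO clone 15 was. It was 13 with DESeq2 and 3 with limma.

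The 4-day response differed between MAVS-/- clones and clones with intact MAVS for 14 members, where 4.85% of all genes differed (2.46% up and 2.39% down). All 14 differences were positive, led by MRPL12 (0.92 ± 0.24), MRPL40 (0.91 ± 0.25), MRPL11 (0.89 ± 0.19), MRPS34 (0.81 ± 0.23) and MRPS35 (0.79 ± 0.17), with edgeR adjusted p up to 0.0363 among these 5. MRPL40, a mitochondria-specific large subunit protein, read 20.3, 21.6 and 21.5 CPM with IAA against 22.2, 20.6 and 21.2 CPM with DMSO in MAVS-/- clones, while with MAVS intact it read 18.0, 10.7 and 13.1 CPM against 26.2, 26.9 and 27.0 CPM. Starting levels also differed: between MAVS-/- DMSO libraries (4 days) and DMSO libraries with intact MAVS (2 days) 23 members were higher and 22 lower, where 46.1% of all genes were called, and MRPS35 stood at -0.33 ± 0.12. Clone, DMSO duration and MAVS status cannot be told apart in these starting levels, nor in the 14 differences between responses. The 14 differences became 3 to 8 without any 1 of 6 libraries, the lowest without the 2-day DMSO library of clone 9 or the MAVS-/- DMSO library of clone 1, 7 without the count filter and 23 with limma.

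**Figure D5:**
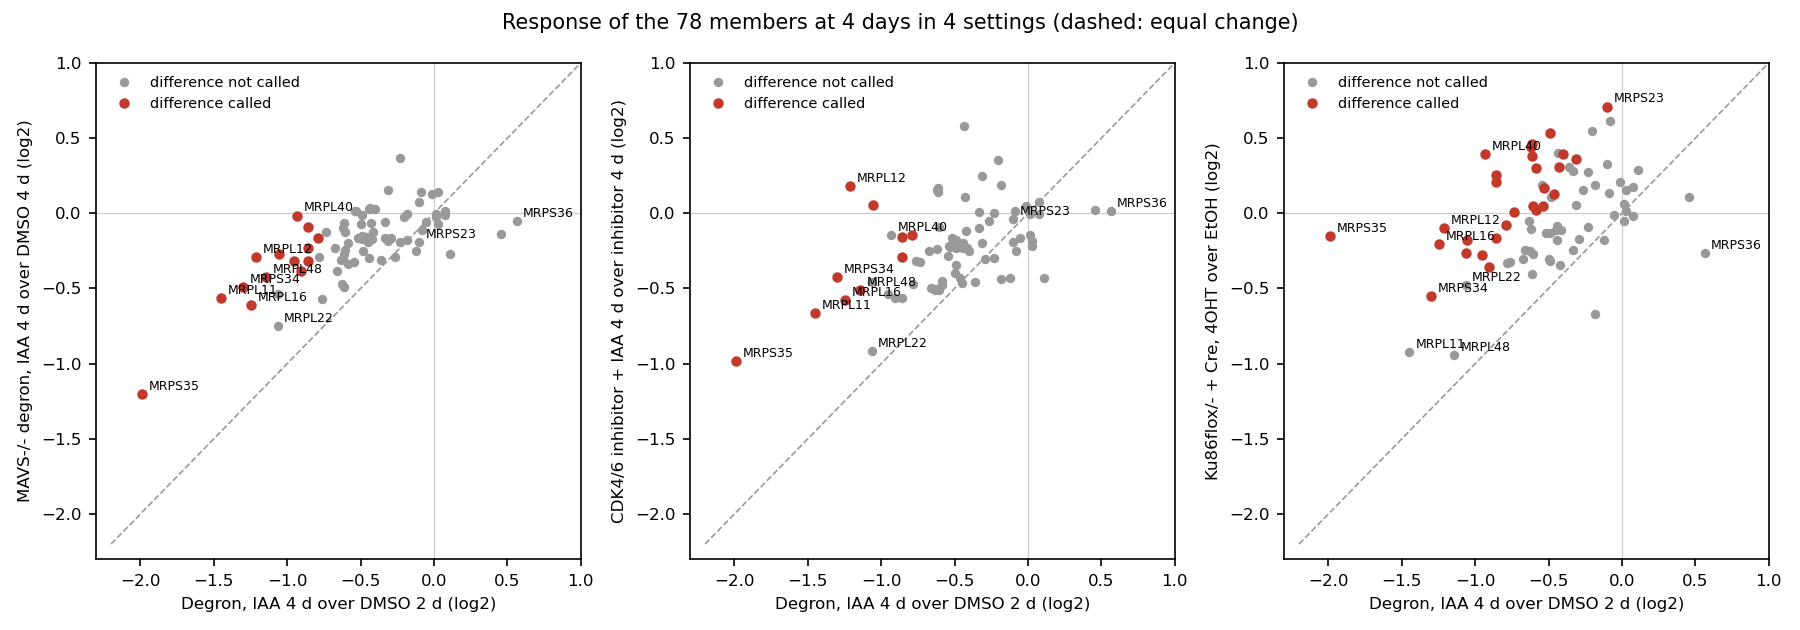
Log2 change of the 78 members after 4 days of IAA in clones with intact MAVS (horizontal axis of each panel) and in MAVS-/- clones, on the CDK4/6 inhibitor and after 4OHT in Cre cells (vertical axes, left to right). Red points are members whose difference between the 2 responses was called (14, 10 and 28), and the dashed line marks equal change. MRPS35 is the leftmost point in each panel and lies at -1.20, -0.98 and -0.15 on the vertical axes.

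With 4OHT in Cre cells, where Ku80 is removed without doxycycline, 23 members rose and 22 fell, where 26.4% of all genes were called up and 27.5% down (54% in all), and the median was -0.01. The members' shares are near those of all genes. MRPL48 (-0.94 ± 0.10), MRPL11 (-0.93 ± 0.08), MRPS6 (-0.67 ± 0.09), MRPS34 (-0.55 ± 0.08) and MRPL22 (-0.48 ± 0.11) fell the most. MRPS23 (0.71 ± 0.06), MRPL33 (0.62 ± 0.10), MRPS12 (0.55 ± 0.08), MRPL32 (0.53 ± 0.08) and MRPL53 (0.46 ± 0.14) rose the most, and edgeR adjusted p ran up to 0.0136 among these 10. MRPL11 read 23.7 and 25.7 CPM with 4OHT against 45.9 and 47.9 CPM with EtOH, and MRPL48 14.1 and 12.9 CPM against 25.5 and 26.6 CPM. MRPS23, a mitochondria-specific small subunit protein, read 138 CPM in both 4OHT libraries against 87.0 and 81.3 CPM with EtOH. With limma on TPM values 14 rose and 32 fell.

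4OHT without Cre gave 1 rise and 8 falls, where 13.7% of all genes were called (7.26% up and 6.44% down), led by MRPL24 (-0.43 ± 0.09), MRPL51 (-0.39 ± 0.06) and MRPS6 (-0.35 ± 0.09), while MRPS25 rose by 0.30 ± 0.05. That count of 9 became 26 without EtOH replicate 1, 5 without EtOH replicate 2, 2 and 3 without 4OHT replicates 1 and 2, 5 with DESeq2 and 1 with limma. The responses with and without Cre differed for 24 members, where 41.2% of all genes differed, 19 of them higher and 5 lower with Cre. With limma the split was 7 and 19, on a scale where the median of all genes shifted to -0.18. The lower ones were MRPL48 (-0.88 ± 0.13), MRPL11 (-0.73 ± 0.12), MRPL42 (-0.36 ± 0.09), MRPS22 (-0.35 ± 0.09) and MRPS27 (-0.32 ± 0.08). The highest were MRPL33 (0.85 ± 0.14), MRPS23 (0.75 ± 0.09), MRPL41 (0.72 ± 0.15), MRPL53 (0.72 ± 0.20) and MRPS12 (0.65 ± 0.12). MRPL33, MRPL41 and MRPL53 belong to the shortest of the 4 transcript length classes. The members' median difference was 0.35 in that class and -0.02, 0.01 and 0.06 in the longer ones. Without Cre the median change after 4OHT was -0.19 in the shortest class and -0.03 in the longest. The part of transcript length in these differences was not tested. Nothing in the labels says that the numbered Ku86Flox/- replicates were separate cultures, and their p-values may rest on technical spread alone.

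Between the 4-day IAA response and the 4OHT response in Cre cells 28 members differed, where 13.3% of all genes did, and all 28 were lower after IAA. Beside MRPS35 the largest differences were MRPL40 (-1.35), MRPL12 (-1.15), MRPL45 (-1.14) and MRPL53 (-1.11). Of the 46 members that fell at 4 days of IAA, 20 (43.5%) also fell with 4OHT in Cre cells and 10 (21.7%) rose there. Of all genes that fell at 4 days of IAA, 61.2% fell and 9.37% rose with 4OHT in Cre cells. The 10 members were MRPL14, MRPL32, MRPL40, MRPL45, MRPL50, MRPL53, MRPS7, MRPS18C, MRPS21 and MRPS25. MRPL45 read 46.2, 48.4 and 42.6 CPM at 4 days of IAA against 82.1, 85.9 and 80.6 CPM with DMSO, but 65.9 and 67.3 CPM with 4OHT against 54.9 and 56.8 CPM with EtOH.

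In HEK293 Ku70-/- clones 8 days without doxycycline gave 14 members higher, where 11.1% of all genes were called up, and 3 lower, where 10.9% were called down, with a median of 0.16. With the clone as a block, which pairs these libraries, 26 rose and 4 fell, where 16.9% of all genes were called up and 17.8% down. MRPL1 of the mobile stalk at the exit site rose the most, at 1.27 ± 0.24 (edgeR adjusted p = 0.00676). It read 64.9, 40.7 and 85.3 CPM without doxycycline against 23.2, 27.9 and 27.9 CPM with it, without overlap. MRPL58, a release factor built into the ribosome (0.73 ± 0.15), MRPS18C (0.71 ± 0.16), MRPS5 (0.68 ± 0.14) and MRPL10 (0.66 ± 0.15) followed. MRPL24 (-0.56 ± 0.17), MRPS28 (-0.49 ± 0.14) and MRPS14 (-0.41 ± 0.12) fell. Of the members higher here, 7 had fallen at 4 days of IAA in HCT116: MRPL18, MRPL46, MRPL48, MRPL58, MRPS18B, MRPS18C and MRPS31. Of all genes higher here and tested in HCT116, 14.3% had fallen at 4 days of IAA. Among the 78 members as a whole 46 had fallen there, so 7 of 14 is not above the members' own share. MRPL48 read 35.0, 32.5 and 41.5 CPM without doxycycline against 25.3, 26.8 and 24.9 CPM with it. The count of 17 rested on single libraries, since it became 1, 9 and 3 without the doxycycline libraries of clones Sa11, SB and TI and 3, 31 and 10 without those grown without it.

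Across the 7 comparisons of IAA with its control, MRPS35 was the only member that fell in all 7. MRPL11, MRPL16, MRPL42, MRPL45, MRPL48 and MRPS27 fell in 5, and 23 members (29.5%) fell in none. Of all genes 0.0318% fell in all 7, 1.57% in 5 or more and 75.4% in none. The 2-, 4- and 6-day comparisons share 1 set of DMSO libraries, so these counts are not independent. MRPS27, a small subunit protein with RNA-binding repeats, read 94.3, 107 and 102 CPM at 4 days of IAA against 181, 188 and 198 CPM with DMSO. MRPL42 read 109, 159 and 140 CPM against 216, 222 and 190 CPM. Both groups were separate in each gene.

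Partner genes of mitochondrial translation fell beside the members at 4 days of IAA, where 14.9% of all genes were called down and 17.9% up. Of 14 translation factor genes 6 fell and 1 rose, among them the elongation factors TSFM (-1.07 ± 0.18) and TUFM (-0.91 ± 0.12), while the initiation factor MTIF3 rose (0.73 ± 0.17). Of 24 ribosome assembly genes 11 fell and 1 rose, with C1QBP at -1.37 ± 0.15, METTL17 at -1.04 ± 0.11 and NGRN at 0.43 ± 0.12. Of 17 mitochondrial tRNA synthetases 12 fell, among them VARS2 (-1.32 ± 0.22). Of 76 nuclear genes of the respiratory chain 40 fell and 1 rose, and of 77 cytosolic ribosomal protein genes 18 fell and 9 rose. Of the 13 mRNAs encoded by mitochondrial DNA 12 rose at 4 days of IAA against 2-day DMSO controls, with a median of 1.22. Among them were MT-ATP8 (1.75 ± 0.49) and MT-ATP6 (1.67 ± 0.31). Against the same controls all 13 also rose with the inhibitor alone at 4 days, without IAA or doxycycline, where the members' median was -0.02. Of all genes 3.85% were called up on the inhibitor. In 4-day MAVS-/- DMSO libraries 7 of the 13 were higher than in the 2-day DMSO controls, where 4633 of 18877 genes were. With IAA on the inhibitor, against the inhibitor alone at 4 days, all 13 were negative and 2 were called (median -0.56). Of all 18877 genes 962 were called down in that comparison. With 4OHT in Cre cells, without doxycycline in either arm, 10 rose and 1 fell (median 0.40), where 4424 of 16726 genes rose and 4605 fell. At 2 days of IAA 1 fell and none rose (median -0.09), where 9.94% of all genes fell and 9.12% rose. At 6 days 9 rose, where 17.8% of all genes did. In MAVS-/- clones none of the 13 was called after IAA, where 893 of 18877 genes rose and 595 fell. In HEK293 without doxycycline 5 fell and 1 rose, where 1695 of 15549 genes fell and 1731 rose.

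Among the regulators of these genes, MYC fell at 2 days of IAA (-1.20 ± 0.24), as did the coactivator PPRC1 (-0.77 ± 0.12) and NRF1 (-0.37 ± 0.12). At 1 day of IAA 0 of the 7 regulators tested were called, and the lowest stood at -1.19. At 4 days GABPA (-0.59 ± 0.18), PPRC1 (-0.39 ± 0.12), NRF1 (-0.36 ± 0.12) and YY1 (-0.27 ± 0.10) fell, while MYC (-0.52 ± 0.23), ESRRA (-0.30 ± 0.25) and GABPB1 (0.11 ± 0.13) were not called. At 6 days MYC stood at -0.38 ± 0.23 and NRF1 at -0.27 ± 0.11, and neither these nor the other 5 tested were called by edgeR. In MAVS-/- clones MYC fell (-1.23 ± 0.24). With IAA on the inhibitor 0 of 7 were called at 2 days, and 1 fell at 4 days, where 962 of 18877 genes did. In HEK293 without doxycycline 3 of 8 rose, where 1731 of 15549 genes did. With 4OHT in Cre cells NRF1 (-0.75 ± 0.09), GABPB1 (-0.65 ± 0.09), PPRC1 (-0.27 ± 0.05) and YY1 (-0.25 ± 0.05) fell. ESRRA (0.41 ± 0.09) and MYC (0.36 ± 0.05) rose there, and GABPA (-0.03 ± 0.08) was not called. TFAM, which packages and transcribes mitochondrial DNA, fell at 4 days of IAA (-0.86 ± 0.12), in MAVS-/- clones (-0.41 ± 0.12) and with 4OHT in Cre cells (-0.66 ± 0.08). Their part in the members' changes was not tested.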

How the data were processed

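The authors deposited estimated counts per gene (expected counts) and TPM values per gene for the 40 HCT116 and 6 HEK293 libraries. The submitters' processing notes name GRCh38, kallisto 0.50.0, Salmon 1.10.2 and DESeq2 and assign them no role. Neither the annotation nor the strand setting is given in the sources used here, nor how multi-mapping was handled, so antisense and near-identical genes are uncertain. No per-sample column was left unmatched (0).

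Counts were rounded and tested with edgeR 4.0.16 in R 4.3.3 (TMM, filterByExpr by group, quasi-likelihood F-tests, Benjamini-Hochberg adjustment over all genes, threshold 0.05). Fits covered 32 degron libraries (18877 genes, 20 residual degrees of freedom), 8 Ku86Flox/- libraries (16726 genes, 4) and 6 HEK293 libraries (15549 genes, 4). A joint fit of the 40 HCT116 libraries, chosen after seeing the data, compared IAA with 4OHT responses. Adjusted p-values are edgeR's unless another tool is named. Differences between responses are 4-group contrasts. Levels are TMM-scaled CPM or deposited TPM, with SDs over libraries. In HEK293 and in each comparison of IAA with its control, each clone stood in both arms and pairs its libraries. The inhibitor alone at 2 days lacked clone 7, which its 2-day DMSO controls held. Same-clone deviations correlated at 0.245 to 0.467 in HEK293 and 0.0621 to 0.273 in MAVS-/- clones. In the other comparisons of IAA with its control they correlated at 0.0234 to 0.182. For 6 against 2 days of IAA the range was 0.00508 to 0.0564. Alternatives were limma 3.58.1 on log2(TPM + 1), DESeq2 1.42.0, RLE factors, no filter on counts, a block for clone or replicate number, and omission of each library in turn. A library left alone in its arm is taken to vary as the other groups do. The edgeR step was tested on simulated data. Replicate libraries are not stated to be separate cultures beyond their clones.

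The members and lists were chosen with earlier results of these data known. Named members were MRPS35, the 5 largest called changes in each direction per comparison, the levels' extremes and members called in opposite directions, with up to 2 called genes per direction from partner lists and all regulators. PPARGC1A was tested in HEK293 only.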

Additional observations from a re-analysis of the deposited data

Results flagged for a closer look

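Responses that differed between settings, each by a test of the difference in edgeR, are given here together. On the CDK4/6 inhibitor the 4-day IAA response differed from that without it for 10 members, where 414 of 18877 genes were higher and 472 lower. The differences were 1.39 for MRPL12, 1.11 for MRPL23, 1.01 for MRPS35, 0.88 for MRPS34 and 0.78 for MRPL11 (log2). Between MAVS-/- clones and clones with intact MAVS the 4-day IAA response differed for 14 members, where 464 of 18877 genes were higher and 451 lower. These differences were 0.92 for MRPL12, 0.91 for MRPL40, 0.89 for MRPL11, 0.81 for MRPS34 and 0.79 for MRPS35. Both contrasts share the 4-day IAA and 2-day DMSO libraries of the clones with intact MAVS. The responses set against these have 4-day controls, so control duration differs in both contrasts.

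The 4OHT response differed between cells with and without Cre for 24 of 78 members, where 3141 of 16726 genes were higher and 3744 lower. The difference was -0.88 for MRPL48, -0.73 for MRPL11, -0.36 for MRPL42, -0.35 for MRPS22 and -0.32 for MRPS27. It was 0.85 for MRPL33, 0.75 for MRPS23, 0.72 for MRPL41, 0.72 for MRPL53 and 0.65 for MRPS12. MRPL33, MRPL41 and MRPL53 belong to the shortest transcript length class, where the median difference was highest.

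The 4-day IAA response differed from the 4OHT response in Cre cells for 28 members, where 1483 of 19247 genes were higher and 1081 lower. The differences were -1.87 for MRPS35, -1.35 for MRPL40, -1.15 for MRPL12, -1.14 for MRPL45 and -1.11 for MRPL53. The 1-day IAA response differed from the 4OHT response for 6 members, where 9.05% of all genes differed. It did so by -1.10 for MRPS35, -1.09 for MRPS23, -0.71 for MRPL32, -0.66 for MRPL17 and -0.63 for MRPS25. The last contrast compares 1 day of treatment with 4 days. In the contrast of 4 days of IAA the controls are 2-day for IAA and 4-day for 4OHT.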

How the results depend on the processing

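For MRPS35, 163 of 182 alternative values kept their direction and their side of the threshold, including every fall after IAA under RLE factors, no filter, DESeq2, limma and the clone as a block. Direction turned only where nothing was called by edgeR: with the inhibitor alone at 2 days (limma -0.47, called by limma; 1-day DMSO controls -0.10; without 1 library -0.12 to 0.10) and 4 days (limma -0.072), with 4OHT without Cre (limma 0.059; -0.12 to 0.025) and in HEK293 (-0.32 to 0.11). Limma called it with 4OHT in Cre cells (-0.29) and for the difference with and without Cre (-0.35). For 6 against 2 days of IAA the call was lost with limma (0.11) and no filter (0.38), and the value ran from 0.31 to 0.47 without 1 library; for IAA on the inhibitor at 2 days it ran from -1.17 to -0.915.

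For the other named members 790 alternative values kept direction and call, 164 lost the call and 6 reversed. Of 182 alternative counts of members called, 123 stayed within 1.5 times. With limma the counts were 21 at 2 days of IAA, 10 for the inhibitor at 4 days, 8 with IAA on it, 3 in MAVS-/- clones, 1 for 4OHT without Cre, and 29 and 23 for the inhibitor and MAVS differences. DESeq2 gave 5 for the inhibitor, 13 in MAVS-/- clones and 5 for 4OHT without Cre. No filter gave 0 for the inhibitor and 7 for the MAVS difference. With the clone as a block (replicate block) the inhibitor gave 5 and HEK293 30; the MRPS36 rise at 4 days and the MRPL54 rise from 2 to 6 days (0.82, edgeR adjusted p = 0.0512; 0.31 to 1.19 without 1 library) were lost, and no other call named here was. The Ku86Flox/- replicates share only a number (correlations 0.012 and 0.0632), and the block gave 43 and 10 calls there, and 25 for their difference.

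Against 1-day DMSO controls the inhibitor at 2 days gave 2 calls, with MRPL42 at 0.10, MRPS30 at 0.018, MRPL54 at -0.046, MRPL33 at -0.017, MRPL41 at -0.11 and MRPL36 at -0.28, all of opposite sign to their values against 2-day controls. Without 1 library counts ran from 17 to 29 at 2 days, 17 to 26 at 6 days, 11 to 25 for 6 against 2 days, 22 to 35 and 0 to 3 for the inhibitor at 2 and 4 days, 0 to 1 and 10 to 15 for IAA on it, 2 to 11 in MAVS-/- clones, 2 to 26 for 4OHT without Cre, 1 to 31 in HEK293, and 3 to 11 and 3 to 14 for the inhibitor and MAVS differences. Limma on TPM values shifted the median of all genes to -0.36 for the inhibitor at 2 days, -0.14 at 4 days, 0.13 for its difference and 0.10 for the MAVS difference. Of the 10 highest members by TPM 5 were also highest by CPM. Depth limits the low members: MRPL54 had as few as 32 counts in a library.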
